A study of Mus musculus with 14 samples.

Results

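Lysyl oxidases are copper-dependent amine oxidases that cells secrete into the matrix. They oxidise lysine side chains of collagen and elastin to aldehydes, which then form the cross-links that make fibres insoluble and stiff. Lox, the founding enzyme, and Loxl1, which is needed to maintain elastic fibres, are made as pro-enzymes that procollagen C-proteinase (Bmp1) cleaves. Loxl2 carries scavenger receptor domains in place of that pro-region and cross-links collagen IV of basement membranes. Fibroblasts and smooth muscle cells are the classical sources of these enzymes, and blood cells build little collagen matrix.

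The genes were taken by their symbol in the platform's probe table, which gave 3 of 6542 named genes, each with 1 of the 7680 probes. A probe of the relative Loxl3 is described beside them, and Loxl4 is not analysed here. All 3 genes were picked with their values in these arrays known, so their levels are given as a description with no test. No sequence of them is shown.

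RNA of 11 mouse cell lines was hybridised to 14 two-colour spotted arrays, with the line labelled in Cy5 and Stratagene's mouse reference pool in Cy3. The reference label of mammary tumor array 1 carries the added letters MRR, which the labels do not explain, and the family's mammary tumor values are given by array as well as by their mean. The series title names the question, which genes single lines contribute to this Universal Mouse Reference RNA, a pool of RNA. The labels name the lines as mammary tumor, fibroblast and myeloma (2 arrays each) and as kidney, liver, testis, skin, myoblast, embryo fibroblast, macrophage and T-cell lymphoma (1 array each). No strain, age, treatment or passage is given in the labels, which call the samples cell lines in their titles and primary tissue in a short annotation; the titles were followed. Every value was read as a log2 ratio of line over pool, which was assumed because the sources give neither log base nor direction. On that reading 0 means the level of the pool, 1 means 2-fold above it and -2 means 4-fold below it. The ratio of one probe was not set against the ratio of another as a level. A line with 1 array has no replicate check. Whether paired arrays used separate cultures is not stated. In the fit of single lines a p-value therefore covers just the spread between paired arrays, which may be technical. Comparisons of lineages take their p-values from the spread between line means, most of which rest on 1 array. In bulk RNA, fewer cells that make a transcript and less of it per cell cannot be told apart.

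Some lines did not carry the markers of their name. Plasma cell, T cell and myoblast markers were above the pool on every probe measured (5 of 5, 3 of 3 and 5 of 5), and macrophage markers on 5 of 6. Of 5 epithelial probes 1, Krt18 (0.28), was above the pool in the mammary tumor line (median -1.05). There Cdh1 stood at -0.11, Cldn7 at -1.05, Epcam at -1.85 and Krt8 at -3.01. Krt8 and Epcam were also low in the other lines, with means of -2.54 and -1.76. In the embryo fibroblast line 0 of 4 fibroblast marker probes were above the pool. Col1a1 stood at -1.88, Dcn at -1.17 and Pdgfra at -2.73 and -1.10 on its 2 probes. Hepatocyte markers in the liver line lay between -0.93 and 0.33, near the pool, and in no case was that line the highest. Of 4 kidney tubule probes 1, Pax8, was above the pool in the kidney line. So were 3 of 4 fibroblast probes in the fibroblast line and 4 of 6 Sertoli and Leydig probes in the testis line. In the skin line 2 of 4 melanocyte and 1 of 2 keratinocyte probes were above it. Whole arrays were shifted too, with median log2 ratios from -0.51 (embryo fibroblast) and -0.40 (kidney) to 0.13 (skin). The 2 arrays of a line correlated at 0.665 (mammary tumor), 0.676 (myeloma) and 0.379 (fibroblast) across probes, which are not independent replicates, and the fibroblast values below rest on the least alike pair.

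Lox spanned 6.69 on the log2 scale over the lines, a 103-fold range. It was 0.77 and 2.04 on mammary tumor arrays 1 and 2, 1.37 in the embryo fibroblast line, 0.20 in the myoblast line and -0.15 in the testis line. It was -1.89 in the kidney line and -3.25 and -1.39 on fibroblast arrays 1 and 2. The other 5 lines were far below the pool: liver at -4.47, macrophage at -4.63, skin at -4.98, T-cell lymphoma at -5.29 and myeloma at -4.89 and -4.01. The lines thus stood in 2 sets, with 6 lines from 1.40 down to -2.32 as line means and 5 lines from -4.45 to -5.29. Only the step between these sets, from the fibroblast to the myeloma line (2.13), was wider than the widest gap between 2 arrays of a line (1.86, the fibroblast pair). The other 9 steps between neighbouring lines were within it, so the order inside each set was not resolved. By array, fibroblast array 1 (-3.25) and myeloma array 2 (-4.01) were nearer to each other than that widest gap. The 2 sets therefore hold for line means only. When each array was centred on its median, the embryo fibroblast line (1.87) passed the mammary tumor line (1.37).

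Loxl1 had the widest range of the family, 8.53 on the log2 scale or 370-fold, with an SD over lines higher than that of 99.9% of the 7423 probes tested. It was 1.65 in the myoblast line, 1.64 in the embryo fibroblast line, 0.46 and 1.34 on mammary tumor arrays 1 and 2, and -0.12 and 1.19 on fibroblast arrays 1 and 2. The kidney line (0.07) and the skin line (-0.03) were at the level of the pool, and the testis line was below it (-1.14). The liver line stood at -3.23. The blood-cell lines were lowest: T-cell lymphoma at -5.49, myeloma at -4.54 and -6.42, and macrophage at -6.88. Here 7 lines lay from 1.65 to -1.14, liver stood alone, and the blood-cell lines lay below it. The steps from testis to liver (2.09) and from liver to myeloma (2.25) were wider than the widest gap within a pair (1.89, myeloma), and the other 8 were not. Myeloma array 1 (-4.54) was nearer to the liver line than that gap, so the step from liver to myeloma holds for the myeloma mean only.

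Loxl2 had another order. It was highest in the kidney line (1.42), followed by the testis line (0.39), the liver line (-0.48) and the skin line (-1.57). The blood-cell lines came next, with macrophage at -2.46, T-cell lymphoma at -2.75 and myeloma at -2.03 and -2.86. By line mean, the 4 lines highest for Loxl1 were lowest for Loxl2, and the testis line, in the upper set for Lox (-0.15), was not among them. Loxl2 was -2.38 and -3.59 on mammary tumor arrays 1 and 2, -3.04 in the embryo fibroblast line and -3.48 in the myoblast line. On fibroblast arrays 1 and 2 it was -3.55 and -3.58. The range was 4.98 on the log2 scale (31.6-fold). None of the 10 steps between neighbouring lines was wider than the widest gap within a pair (1.22, mammary tumor), so the order is a gradient without a resolved step. The kidney line had the highest mean for 6.90% of all probes tested, so a maximum there is not rare. Its lead grew when each array was centred on its median (1.82 against 0.55 in the testis line). With that centring the embryo fibroblast line (-2.53) was no longer among the lowest lines and lay above the T-cell lymphoma line (-2.75).

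**Figure D1:**
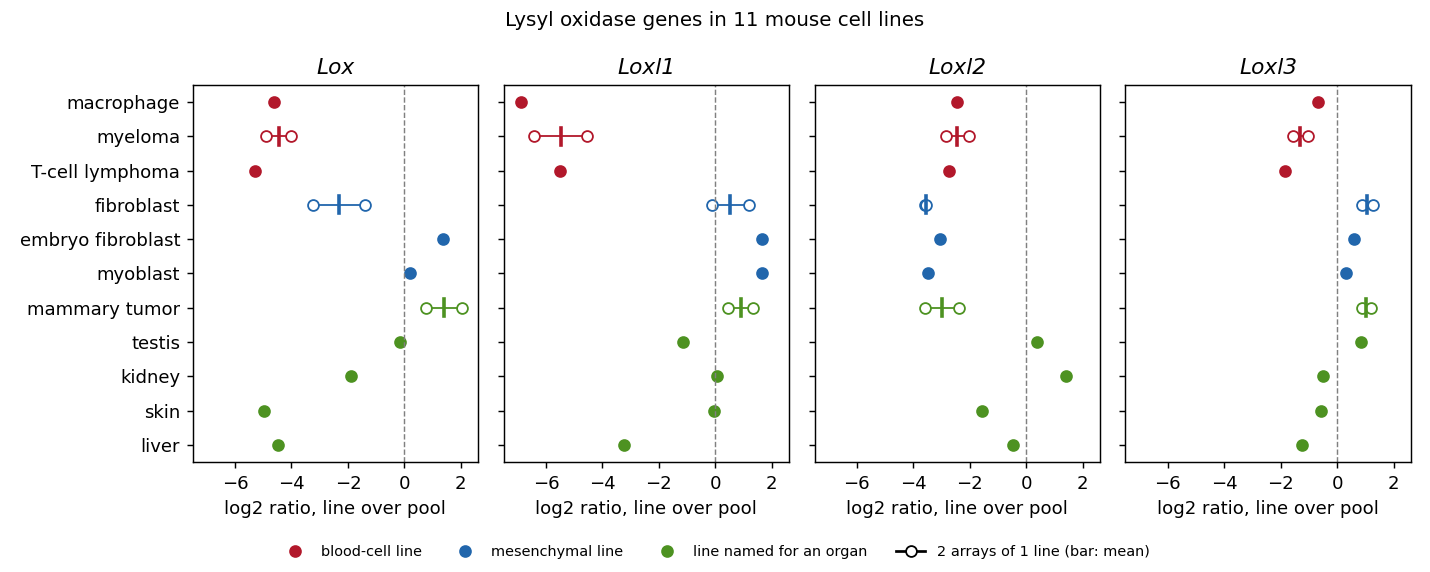
Log2 ratio of line over pool (horizontal axis) for the Lox, Loxl1, Loxl2 and Loxl3 probes in 11 cell lines (vertical axis); filled points are lines with 1 array, open points joined by a line are the 2 arrays of a line, and the short bar is their mean. Loxl1 of all 3 blood-cell lines lies below -4.5, Lox is as low in the skin and liver lines as in the blood-cell lines, and Loxl2 is highest in the kidney line at 1.42.

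Lox and Loxl1 did not follow each other everywhere. In the skin line Lox was at 0.0316 of the pool and Loxl1 at 0.979 of it. In the fibroblast line the mean was 0.200 of the pool for Lox and 1.45 for Loxl1. Over the 11 line means Pearson's r between Lox and Loxl1 was 0.759, and 0.634 over the 8 lines that are not blood cells. Between Lox and Loxl2 it was -0.109 and -0.348, and between Loxl1 and Loxl2 -0.037 and -0.620, over the 11 and the 8 lines. These correlations are a description over few lines that share 1 reference channel and, within an array, its shift. With each array centred on its median they were 0.771, -0.024 and 0.024 over the 11 lines.

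The unlogged ratios show how much each line could add to the pool's transcript if lines entered in equal parts. For Lox the mammary tumor line held 33.4% of the ratios summed over 11 lines and the embryo fibroblast line 32.5%. The myoblast line held 14.5%, the testis line 11.4%, and each of the other 7 lines at most 3.40%. These shares are rough, since the mammary tumor arrays stood at 0.77 and 2.04 and most lines had 1 array. With each array centred on its median the embryo fibroblast line (1.87) was above the mammary tumor line (1.37). For Loxl1 the myoblast and embryo fibroblast lines held 25.8% and 25.5%, the mammary tumor line 15.3%, the fibroblast line 11.9%, and the 3 blood-cell lines from 0.0696% to 0.183% each. For Loxl2 the kidney line held 44.7%, the testis line 22.0% and the liver line 12.0%, and the fibroblast line 1.42%. Read as natural logs, a base that the values do not exclude, the share of the kidney line in Loxl2 was 60.5% and that of the mammary tumor line in Lox 39.3%. With equal parts the mean unlogged ratio over lines would be 1. It was 1.11 for Loxl1 and 0.721 for Lox. For Loxl2 it was 0.544, lower than for all but 0.701% of the probes tested, so for that probe the lines summed in equal parts fell short of the pool. No gene of the family met the criterion of a transcript unique to 1 line (at least 2 on the log2 scale in that line and at most 0 in the other 10), which 1.05% of the probes met.

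**Figure D2:**
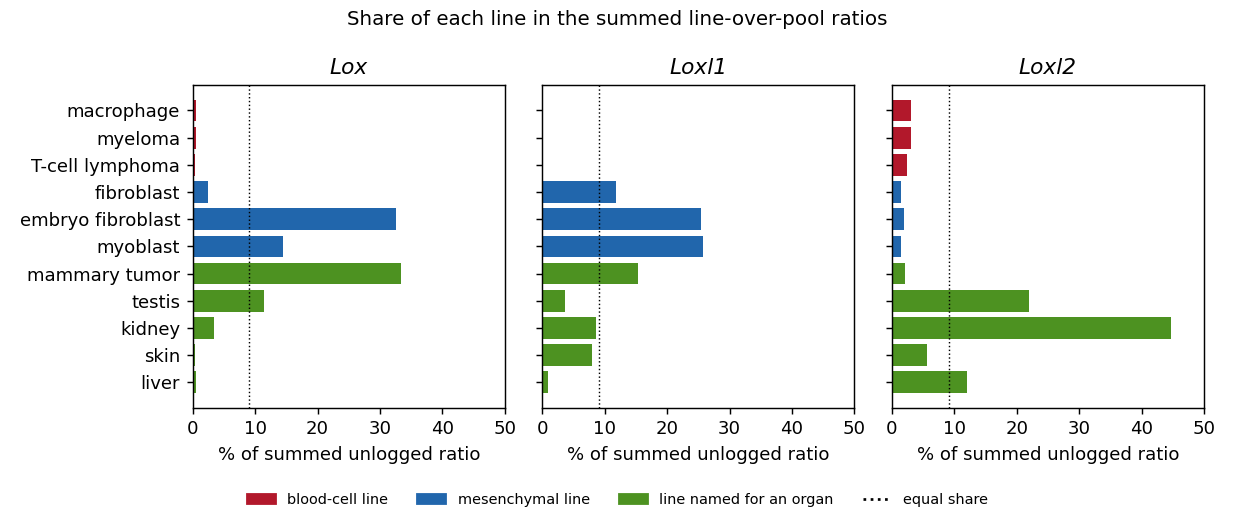
Each bar is the share (percent, horizontal axis) of 1 line (vertical axis) in the unlogged line-over-pool ratios of Lox, Loxl1 or Loxl2 summed over the 11 lines, with 2 arrays averaged on the log2 scale first; the dotted line marks an equal share. For Loxl2 the kidney bar reaches 44.7%, and for Lox the mammary tumor and embryo fibroblast bars reach 33.4% and 32.5%.

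The lines were then grouped by lineage, each line counting once. There were 3 lines of blood cells (T-cell lymphoma, macrophage and myeloma), 3 mesenchymal lines (fibroblast, embryo fibroblast, myoblast) and 5 lines named for an organ. Loxl1 averaged -5.95 in the blood-cell lines and 0.05 in the other 8, a difference of -6.00 ± 0.84 (SE), or 63.9-fold. The groups did not overlap, as was so for 3.53% of all probes in this direction. Lox averaged -4.79 and -1.36, a difference of -3.43 ± 1.23, and the groups overlapped because the skin and liver lines were as low as the blood-cell lines. Loxl2 averaged -2.55 and -1.66, a difference of -0.89 ± 0.96, which is smaller than its error. Over all 7423 probes the median difference was 0.11.

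Image numbers in the labels fall into 5 runs, and 2 runs held both kinds of line. In the run with the T-cell lymphoma line and 3 other lines the blood-cell line was lower by -6.02 for Loxl1, -4.03 for Lox and -1.03 for Loxl2. In the run with the macrophage and myeloma lines and 3 other lines the differences were -5.12, -2.54 and -1.23. The direction was thus the same within both runs.

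Between mesenchymal and organ-named lines the sign of the difference was not the same for the 3 genes. Loxl1 averaged 1.28 in the mesenchymal lines and -0.69 in the organ-named lines, a difference of 1.96 ± 0.78. Lox averaged -0.25 and -2.02, a difference of 1.77 ± 1.36, which became 2.80 without the fibroblast line. Loxl2 averaged -3.36 and -0.64, a difference of -2.72 ± 0.80, or 6.57-fold lower. For Lox and Loxl1 the groups overlapped, with the mammary tumor line at 1.40 and 0.90. For Loxl2 all 3 mesenchymal lines (-3.04 to -3.56) were below all 5 organ-named lines, as was so for 3.72% of all probes. The mean of the mammary tumor line (-2.98) lay next to them, and its array 2 (-3.59) lay below them. When each array was centred on its median the groups overlapped, with the embryo fibroblast line at -2.53 and the mammary tumor line at -3.02. Within image runs Lox differed by -1.84 in the run that paired the myoblast line with the second mammary tumor array, and by 0.95 and 0.92 in the other 2 runs, so its direction did not hold in every run. Loxl2 differed by 0.12 in that first run and by -4.71 and -3.54 in the others, so its direction did not hold throughout either. For Loxl1 the differences were 0.32, 0.69 and 3.38.

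In the fit of each line against the mean of the other 10, Lox was higher by 4.06 ± 0.56 in the mammary tumor line (1.40 against -2.66) and by 4.02 ± 0.76 in the embryo fibroblast line. Loxl1 was higher by 3.56 ± 0.77 in the myoblast line and 3.55 ± 0.77 in the embryo fibroblast line, and lower by -5.82 ± 0.77 in the macrophage line, -4.28 ± 0.57 in the myeloma line and -4.29 ± 0.77 in the T-cell lymphoma line. Loxl2 was higher by 3.66 ± 0.53 in the kidney line and 2.53 ± 0.53 in the testis line. Errors of single arrays are borrowed from the 3 lines with 2 arrays. The choice of the genes used these contrasts, so their calls are not read as results; for scale, 0.714% of all probes were called higher in the mammary tumor line and 2.13%, 3.41% and 2.36% lower in the macrophage, myeloma and T-cell lymphoma lines (limma, Benjamini-Hochberg adjusted p under 0.05).

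Loxl3, the remaining family member measured, varied less. It was highest in the fibroblast line (1.26 and 0.89 on arrays 1 and 2) and the mammary tumor line (0.87 and 1.19), followed by testis (0.84), embryo fibroblast (0.58) and myoblast (0.30). It was below the pool in kidney (-0.50), skin (-0.57), macrophage (-0.67), liver (-1.25), myeloma (-1.57 and -1.04) and T-cell lymphoma (-1.85). Blood-cell lines differed from the other lines by -1.46 ± 0.50, which did not pass the test (limma adjusted p = 0.125). Its line means followed those of Lox (r = 0.831) and Loxl1 (0.753) and not those of Loxl2 (-0.182).

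Genes that work with lysyl oxidases were examined as 9 lists written from textbook knowledge, of which 94 genes with 101 probes were tested. In the blood-cell lines 19 of the 101 probes (18.8%) fell and 0 rose, against 2.22% lower and 0.997% higher among all 7423 probes (limma, adjusted p under 0.05; at an unadjusted p under 0.05, 44 pathway probes, or 43.6%, were lower and 0 higher, against 19.8% of all probes in either direction). The median difference of the 101 probes was -0.77, against 0.11 over all probes. That matrix genes are low in these lines was known when the lists were written, so the count is not independent evidence of it. The 19 became 6 without the T-cell lymphoma line, 10 without the macrophage or the myeloma line, and 11 without the fibroblast line, the kidney line or the first myeloma array, and were at most 21 with any 1 array or line left out. With quantile normalization 5 were called.

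Among substrate and other matrix genes, the list of fibril collagens also held collagen VI and fibril-associated chains. Of its 17 probes 4 fell in the blood-cell lines and 0 rose. Col5a2 was lower by -5.25 ± 1.17 (37.9-fold, limma adjusted p = 0.0305), Col6a1 by -5.12 ± 1.07, Col1a1, the main chain of collagen I, by -3.70 ± 0.91 and Col5a1 by -3.57 ± 0.69. Of 21 basement membrane probes 5 fell: Sparc, a collagen-binding matricellular protein (-4.32 ± 0.53, 19.9-fold, adjusted p = 0.000850), the laminin chain gene Lamb1 (-4.08 ± 0.70), Col4a1 (-2.97 ± 0.66) and both probes of the perlecan gene Hspg2 (-3.08 and -1.76). Of 10 elastic fibre probes 3 fell: Fbln2 (fibulin 2, -4.13 ± 0.49, adjusted p = 0.000747) and the latent TGF-beta binding protein genes Ltbp1 (-2.50) and Ltbp3 (-2.28). Elastin itself (Eln) was near or below the pool in every line, from -0.05 in the liver line to -1.24 in the fibroblast line.

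Of 11 probes for activation of the pro-enzymes 2 fell, Thbs1 (thrombospondin 1, -5.38 ± 0.97) and Pcolce, the enhancer of procollagen C-proteinase (-2.78 ± 0.37, limma adjusted p = 0.00132). One probe of Bmp1 stood at 1.16 in the mammary tumor line and -2.30 in the T-cell lymphoma line, and its other probe stayed between -0.81 and 0.31 in all lines, so the probes of that gene disagree. Of 12 probes for collagen modification 3 fell, both probes of Serpinh1, the collagen chaperone (-2.81 and -2.38), and Plod2, a lysyl hydroxylase whose products lysyl oxidases cross-link (-2.70 ± 0.66, adjusted p = 0.0426). Of 22 probes for TGF-beta, hypoxia and mesenchymal transcription factors 2 fell, Ccn2 (connective tissue growth factor, -3.76) and Twist2 (-2.46). Sparc, Pcolce, Thbs1, Fbln2 and Lamb1 were called in all 21 other settings. Col1a1, Plod2, Ccn2, Ltbp1, Twist2 and the Hspg2 probe at -3.08 lost their call in 11 to 13 of them.

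**Figure D3:**
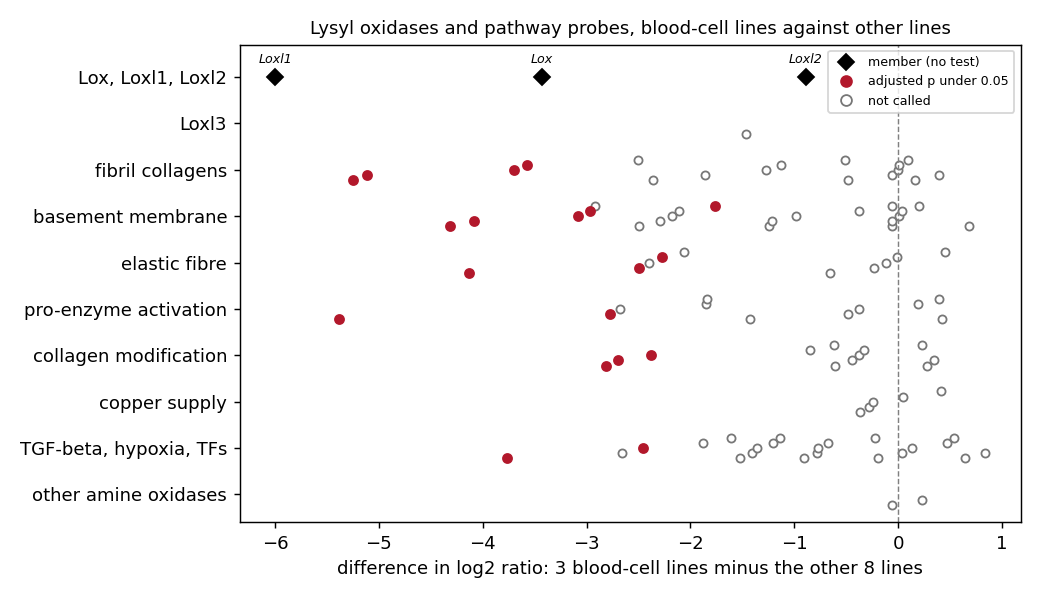
Difference in log2 ratio between the 3 blood-cell lines and the other 8 (horizontal axis) for each pathway probe, by list (vertical axis). Red points passed the limma test at an adjusted p under 0.05 and open points did not. Black diamonds are Lox, Loxl1 and Loxl2, which were in the fit but are given with no test. Loxl1 at -6.00 lies beyond each pathway probe, the lowest of which is Thbs1 at -5.38.

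The mesenchymal lines against the organ-named lines gave 0 calls among all 7423 probes (limma, lowest adjusted p = 0.411), although 510 probes (6.87%) had an unadjusted p under 0.05. Of the pathway probes 10 did so, 6 higher and 4 lower. The largest difference among them was Dcn (decorin), at 3.35 ± 1.38. Without the myoblast line 1 probe of all was called.

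Single lines were also compared with the other 10 for the pathway probes. The mammary tumor line, one of the lines at the upper end for Lox, had 10 higher of 101 (9.90%), against 0.714% of all probes. Among them were Thbs1 (4.45 ± 0.40), Col5a2 (4.24 ± 0.55) and Col12a1 (3.40 ± 0.27). Postn (periostin, a scaffold on which Bmp1 cleaves the Lox pro-enzyme) was higher by 3.40 ± 0.53. Col6a3 was higher by 3.12 and 2.77 on 2 probes, while another of its probes stood at 1.32 in that line and was not called. These 10 became 0 without either mammary tumor array, 6 or 5 without myeloma array 1 or 2, 3 with the image run as a random block, 16 with quantile normalization and 24 with the replicate block. The embryo fibroblast line had 2 higher (against 0.418% of all probes), Ccn2 (3.38 ± 0.49) and Lamb1 (2.87 ± 0.49), and 3 lower (against 1.79%), Tgfbr2, a TGF-beta receptor (-4.34 ± 0.67), Col12a1 (-3.22 ± 0.37) and Tgfb2 (-2.28 ± 0.35). The higher count in that line became 0 when either mammary tumor array was left out, 5 or 4 without fibroblast array 2 or 1, 4 with the image run as a block, 1 with quantile normalization and 9 with the replicate block. The lower count became 1 or 0 when mammary tumor array 1 or 2 was left out, 5 without either fibroblast array, 1 with median centring or quantile normalization and 12 with the replicate block. The fibroblast line, with a Lox mean of -2.32, had 7 higher (6.93%) and 2 lower (1.98%). The myoblast line had 5 higher (4.95%) and the testis line 3 (2.97%), with 0 lower in both. Over 11 alternatives the higher counts in these lines ranged from 0 to 18, 0 to 22 and 0 to 13. Shares of all probes called there are not given here. The liver and skin lines had 0 calls.

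Pathway probes called lower numbered 16 of 101 (15.8%, against 2.13% of all probes) in the macrophage line, 15 (14.9%, against 3.41%) in the myeloma line and 16 (15.8%, against 2.36%) in the T-cell lymphoma line. For macrophage the number called was 10 when mammary tumor array 1 was left out, 8 when array 2 was, 6 with quantile normalization and 29 with the replicate block. In the myeloma line it was 1 without myeloma array 2, 24 or 25 without fibroblast array 1 or 2, and 28 with the replicate block. For T-cell lymphoma the number called was 10 when mammary tumor array 1 was left out, 7 when array 2 was, 27 or 26 without fibroblast array 1 or 2, 4 with quantile normalization and 40 with the replicate block.

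In the kidney line, where Loxl2 was highest, 0 of the 101 pathway probes were called, against 0.0135% of all probes lower and 0 higher. With the replicate block 2 were called higher and 5 lower, and the other 10 settings gave 0. Col4a1 and Col4a2, which encode chains of the basement membrane collagen IV, stood at -0.76 and -1.83 in the kidney line. Of the other chains measured, Col4a6 was above the pool there (0.44). Col4a4 stood at -0.27, Col4a5 at -0.39 and Col4a3 at -0.86. Among the other lines Col4a1 was above the pool in testis (1.61), mammary tumor (1.59), myoblast (1.33) and liver (0.39). It was below the pool in embryo fibroblast (-0.40), fibroblast (-0.95), skin (-1.01), macrophage (-1.64), myeloma (-2.96) and T-cell lymphoma (-3.62). Col4a2 ranged from -2.86 in the macrophage line to 1.54 in the myoblast line.

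The genes whose line means followed each enzyme most closely were ranked by Pearson's r over the 11 lines among 6611 named probes, as a description with no test. For Lox these were Dipk1b (0.918), the hyaluronan synthase gene Has2 (0.873), the matrix glycoprotein gene Tnc (tenascin C, 0.852), Fn1 (fibronectin, 0.846) and the transcription factor gene Snai2 (0.844). Loxl3 followed at rank 8 and Loxl1 at rank 41. Tnc, with log2 ratios from -4.57 in the macrophage line to 2.43 in the myoblast line, came closest to the range of Lox, while Dipk1b ranged only from -0.60 to 1.44. For Loxl1 they were Inhba, a subunit gene of activin (0.958), Lamb1 (0.950), the cGMP-dependent kinase gene Prkg2 (0.946), the protease inhibitor gene Timp1 (0.945) and Parva, an adaptor of integrin adhesions (0.919). Each of these 5 was below -1.5 in all 3 blood-cell lines, and Lox stood at rank 163. For Loxl2 they were Cxadr, a junction protein and virus receptor (0.891), Impa1 (0.886), the zinc transporter gene Slc30a9 (0.851), Cpox of haem synthesis (0.828) and Tbp (0.804). Of these Cxadr moved on a scale like that of Loxl2, from -4.03 in the myoblast line to 3.34 in the testis line, and Tbp stayed between -0.36 and 1.02. With each array centred on its median Tbp moved to rank 15 for Loxl2, Tnc to rank 9 and Snai2 to rank 6 for Lox, and Parva to rank 6 for Loxl1, while the other 11 named genes stayed within the first 5.

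**Figure D4:**
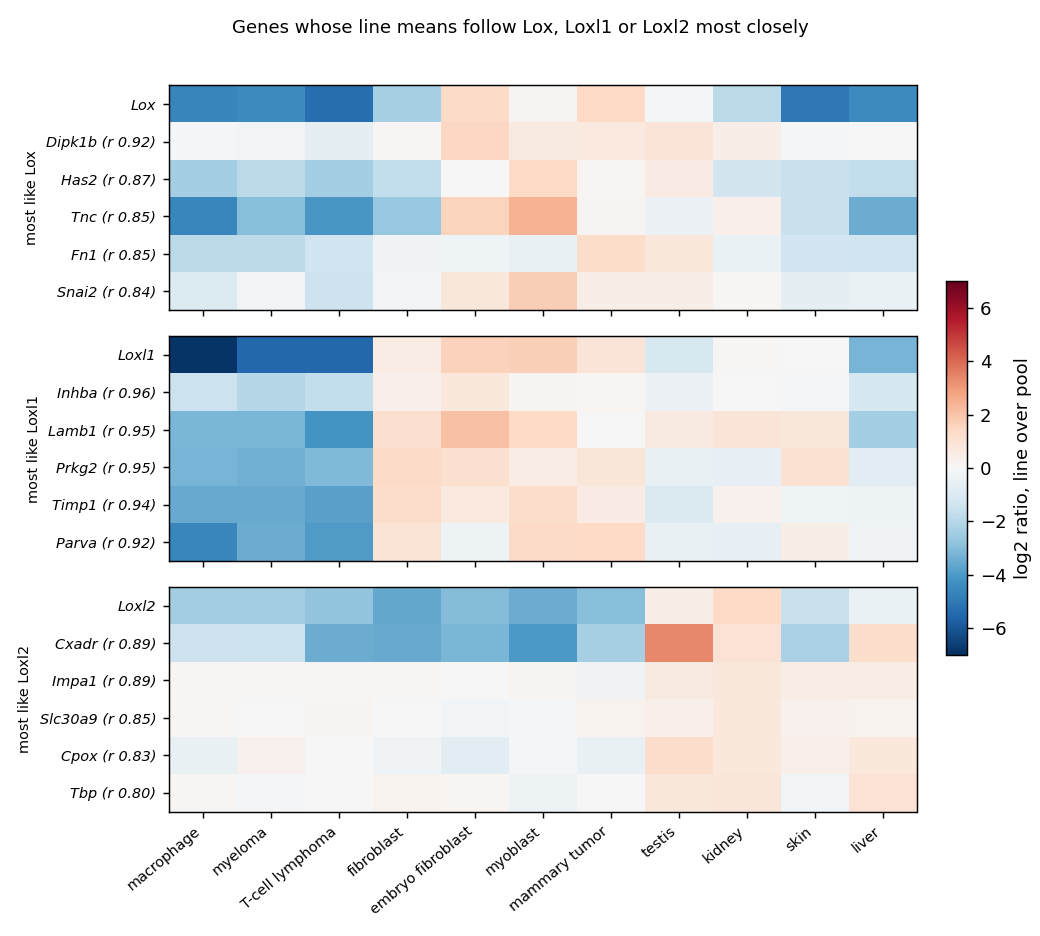
Colour gives the mean log2 ratio of line over pool (scale from -7 to 7) for Lox, Loxl1 and Loxl2 (top row of each panel) and for the 5 genes most like each, with Pearson's r over 11 lines in brackets; columns are the cell lines. Genes like Loxl1 are low in the first 3 columns, the blood-cell lines, and Cxadr and Loxl2 are highest in testis, kidney and liver.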

How the data were processed

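The deposited log2 ratios, 1 per spot and array, were used as the authors left them. The sources used here do not give the log base and direction, or any spot filter, background correction or normalization. Per the labels, Cy3 held the pool and Cy5 the line. Taken as log2 of line over pool, the mean unlogged ratio over the 11 lines had a median of 1.00, against 1.20 with the sign turned, 1.07 as natural logs and 1.87 as log10; in the 743 most variable probes it was 0.923, 3.11, 1.18 and 6.68. Log2 of line over pool was assumed, and every fold rests on it. Whether arrays had been centred is unknown.

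Of 7680 probes 6835 had 1 gene symbol, 4 several and 841 none listed; 6809 were matched by gene identifier to RefSeq symbols (GRCm38.p6 assembly), and no coordinates are given since the array's build is not known. The 80 Gapdh spots were averaged, which left 7601 features, of which 7423, measured in every line, were tested; 0.393% of table cells were empty. Arrays of a line were averaged before lineages were compared. Lineage comparisons used 11 or 8 line means, and single lines were compared with the other 10 in 1 fit of 14 arrays with 3 residual degrees of freedom (limma 3.58.1, R 4.3.3, lmFit and eBayes, two-sided, Benjamini-Hochberg adjustment over all probes). Errors are standard errors of the fit. Probes of a gene were tested and counted separately. On simulated data with changes of 4 on the log2 scale, 95.5% and 94.5% were recovered in the lineage comparisons over 7423 probes. The changes were put on 200 probes drawn at random, each with its own spread. That rate therefore does not describe the most variable probes, such as Lox (SE 1.36 between mesenchymal and organ-named lines), or smaller changes. The number of arrays limits the precision.

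Named genes were all family probes, the 5 probes most correlated with each enzyme, and up to 5 called genes per list and direction. Eln, Bmp1, Dcn and the collagen IV chains in single lines were named after their values were seen. The genes and lists were chosen with earlier results of these data known. Titles number the second array of 3 lines as #2, and the differences between second and first arrays correlated across probes at 0.536, 0.377 and 0.331 between these lines, so arrays of a number deviated together. A fit with the number as a block, 0 for lines with 1 array, is given as the replicate block. Alternatives were median centring, quantile normalization, probes measured on all 14 arrays, each array or line left out, the image run as a random block and, chosen after seeing the data, natural logs. Figures were drawn with matplotlib 3.10.9. No column of the table was left out.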

Additional observations from a re-analysis of the deposited data

How the results depend on the processing

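With quantile normalization the blood-cell comparison gave 111 calls in place of 239, with 5 pathway probes lower in place of 19, and the single-line comparisons 32 pathway calls lower in place of 52. With the replicate block the single-line comparisons, summed over the 11 lines, gave 5330 calls in place of 1545, with 95 pathway calls higher in place of 30 and 121 lower in place of 52; the cause was not tested. With 1 array or line left out the blood-cell comparison ranged from 116 to 342 calls and from 6 to 21 pathway probes lower, the mesenchymal comparison from 0 to 1 calls, and the difference of Lox there from 0.96 to 2.80. The single-line comparisons ranged from 568 to 2361 calls, from 4 to 37 pathway calls higher and from 29 to 78 lower. Differences of Loxl1 between blood-cell and other lines ranged from -6.47 to -5.10 over all 21 alternatives, those of Lox from -3.95 to -2.67 and those of Loxl2 from -1.16 to -0.31. Between mesenchymal and organ-named lines they ranged from 1.33 to 2.36 for Loxl1 and from -3.30 to -2.20 for Loxl2 over 18 alternatives. The image run as a random block had an estimated correlation of 0.470 in the single-line fit and 0.004 in the blood-cell comparison. Signal over background per spot was not analysed here.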

Other observations

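Copper and other amine oxidase genes were few on the array. The median difference of 5 probes for copper supply between blood-cell and other lines was -0.24, against 0.11 over all probes. The copper pump gene Atp7a, which loads copper into secreted enzymes, was -1.64 in the liver line and 0.43 in the line of T-cell lymphoma. The copper chaperone gene Atox1 was highest in the macrophage line (1.01), where Loxl1 was lowest. Aoc3, a copper amine oxidase of the vessel wall and fat, lay between -0.43 (kidney) and 0.98 (testis). These genes were named after their values were seen. Of the TGF-beta ligand genes, Tgfb1 was 1.56 in the T-cell lymphoma line and at most 0.11 (mammary tumor) in the others.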
